A study of Homo sapiens with 18 samples.

Results

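The genes described are 6 ligands of the epidermal growth factor (EGF) family, EREG, AREG, HBEGF, TGFA, BTC and EGF, and 3 receptors of the ERBB family, EGFR, ERBB2 and ERBB3. They were taken as a list of gene symbols, 9 of the 58884 gene identifiers counted, and each symbol matched 1 identifier. The list was chosen with earlier results of these data known. RNA had been sequenced from T47D, an estrogen receptor-positive luminal breast cancer cell line that grows as an established culture, with 3 libraries in each of 6 groups. The groups combined the labels WT and PARP1 KO with DMSO alone, niraparib at 10 μmol/L or olaparib at 10 μmol/L, each for 48 h. Niraparib and olaparib are both inhibitors of the poly(ADP-ribose) polymerases PARP1 and PARP2, and PARP1 is the gene disrupted in the knockout line. The titles also mark WT libraries with AAV and knockout libraries with JL, whose meaning the sources used here do not give, and they do not say whether the knockout line is a single clone. Any other difference between the WT and PARP1 KO lines cannot be told apart from the loss of PARP1. The study's methods describe 3 dishes for each condition in its omics work, and the labels do not tie a library to a dish. P values measure the spread between such dishes at most, since separate days or passages are not stated.

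EGF family ligands are made as transmembrane precursors and are released from the cell surface by ADAM proteases, after which they bind ERBB receptors on the same or on neighbouring cells. EGF, TGFA and AREG bind EGFR, whereas EREG, HBEGF and BTC bind EGFR and ERBB4. ERBB2 has no known ligand of its own and is the preferred partner of the others, and ERBB3 binds neuregulins, has little kinase activity and signals mainly in pairs with ERBB2. In breast epithelium AREG is known as an estrogen-induced ligand of ductal growth, and ERBB2 is the receptor amplified in HER2-positive tumours.

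Library totals ran from 28890837 to 52251288 counts, with a median of 37363326. Levels are given as CPM, counts scaled to the size of the library with TMM factors, or as RPKM, the same per kilobase of exon, where genes are compared with each other. PARP1 itself was at 25.1 ± 1.38 CPM (SD, n = 9) in the PARP1 KO libraries and 337 ± 26.95 CPM (n = 9) in the WT libraries, which is 7.45% of the WT level and follows the labels (2-sided P = 4.11e-05 by exact permutation, which with 9 against 9 cannot be lower). The luminal markers ESR1, PGR, GATA3, FOXA1, KRT8, KRT18, KRT19 and EPCAM summed to between 8835 and 14398 CPM. This sum was at 12328 to 12852 CPM in WT with DMSO, 8835 to 9756 CPM with niraparib and 9640 to 10057 CPM with olaparib. In PARP1 KO it was at 13672 to 14398, 12627 to 13000 and 11609 to 12682 CPM in the same order. The 5 basal markers summed to 42.1 to 44.1 CPM in WT with DMSO, 50.9 to 53.6 CPM with niraparib and 48.5 to 50.5 CPM with olaparib, nearly all of it ACTA2. In PARP1 KO the basal sum was at 37.6 to 42.3, 39.7 to 43.8 and 41.5 to 47.9 CPM in the same order. Of the basal keratins, KRT5 and KRT14 were at most at 0.150 CPM in any library, while KRT17 was at 2.08 to 2.94 CPM in WT with niraparib, 0.0333 to 0.174 CPM in WT with DMSO and at most 0.379 CPM in the other groups. TP63 was at 2.32 to 2.54 CPM in WT with niraparib and 1.36 to 1.45 CPM in WT with DMSO. In PARP1 KO TP63 was at 1.48 to 1.59 CPM with niraparib and 1.63 to 2.16 CPM with DMSO. The 4 fibroblast markers, mostly COL1A1, summed to 102 to 129 CPM in WT with DMSO, 113 to 153 CPM with niraparib and 96.2 to 108 CPM with olaparib. In PARP1 KO they summed to 88.7 to 107, 97.2 to 134 and 100.4 to 125 CPM in the same order. Leukocyte and endothelial markers summed to at most 2.79 and 0.233 CPM. Replicates differed by a chi-square per gene of 3.13 or more, with 17.5 or more for the pairs with WT DMSO replicate 1 against 3.28 for the other pair, and 12.2 and 16.8 for the pairs with WT niraparib replicate 2 against 3.41. In PARP1 KO with niraparib the pairs with replicate 3 were at 11.7 and 14.7 against 3.13. With olaparib in PARP1 KO all 3 pairs were high, at 10.4, 18.3 and 8.21, and with DMSO in PARP1 KO the pair of replicates 1 and 3 was at 10.5. Leaving out WT DMSO replicate 1, WT niraparib replicate 2 or any single PARP1 KO library changed no count of called members given below, although without WT DMSO replicate 1 the genes called between the genotypes went from 36 to 5. The part of the marker shifts in the results below was not tested, and in RNA from whole cultures fewer cells of a type and less RNA per cell cannot be told apart.

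Promoter sequences are shown for the 3 ligands that rose with both inhibitors in WT and for EGF, the ligand that fell with niraparib. The sequences are those of RefSeq on GRCh38.p14, read 5′ to 3′ on the strand of the gene for the 250 bases before the annotated start. For EREG, AREG and HBEGF this start is the start of the gene in the deposited annotation, and for EGF it lies 1 base before it. Capitals mark matches on either strand to TGANTCA (an AP-1 element, here with any base N at its centre), TGACGTCA (the cyclic AMP response element, CRE), TGACG (the core of the CRE), TATAAA (the core promoter element called the TATA box) or GGGCGG (a GC box).
EREG, chr4:74364895-74365144, plus strand: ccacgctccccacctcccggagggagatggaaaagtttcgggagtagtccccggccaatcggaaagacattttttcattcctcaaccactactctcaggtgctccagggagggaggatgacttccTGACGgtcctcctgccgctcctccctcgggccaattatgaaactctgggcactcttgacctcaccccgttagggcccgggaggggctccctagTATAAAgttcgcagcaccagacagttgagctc
AREG, chr4:74444886-74445135, plus strand: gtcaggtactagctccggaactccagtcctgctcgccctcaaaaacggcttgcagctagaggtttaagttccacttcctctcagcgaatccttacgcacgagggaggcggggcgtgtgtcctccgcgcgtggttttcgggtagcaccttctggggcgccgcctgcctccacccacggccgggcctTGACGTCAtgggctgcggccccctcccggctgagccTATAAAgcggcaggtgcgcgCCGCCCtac
HBEGF, chr5:140346604-140346853, minus strand: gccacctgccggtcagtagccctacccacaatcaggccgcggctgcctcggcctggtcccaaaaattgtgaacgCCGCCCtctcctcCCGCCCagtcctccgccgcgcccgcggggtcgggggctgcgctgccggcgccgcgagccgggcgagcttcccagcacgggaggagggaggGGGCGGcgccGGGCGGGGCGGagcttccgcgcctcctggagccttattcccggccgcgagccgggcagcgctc
EGF, chr4:109912633-109912882, plus strand: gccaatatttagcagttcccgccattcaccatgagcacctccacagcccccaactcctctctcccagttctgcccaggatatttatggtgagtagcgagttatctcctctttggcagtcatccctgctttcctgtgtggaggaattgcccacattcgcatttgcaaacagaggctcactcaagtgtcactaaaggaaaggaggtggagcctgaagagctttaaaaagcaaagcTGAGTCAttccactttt
The AREG window held a CRE at -65 to -58, counted back from the start, a TATA box at -29 to -24 and a GC box at -9 to -4. The CRE is its own reverse complement, so it also holds a core on each strand. The EREG window held a CRE core at -125 to -121 and a TATA box at -32 to -27. The HBEGF window held 5 GC boxes, of which 1 pair shared a base, and none of the other motifs. The EGF window held an AP-1 element at -17 to -11 and no other match. Of 35116 RefSeq promoters of the same length, 6.57% held a match to TGANTCA with any base at N, 1.65% a CRE, 21.2% a core, 10.7% a TATA box and 42.6% a GC box. A match describes the letters of the window and is not evidence of a bound site. Of the 9 genes, 8 had a promoter entry. ERBB3 had none. Among members whose sequences are not shown, the first TGFA window held 1 CRE core and 3 GC boxes and the second no match. The first EGFR window held 2 GC boxes, and the second 2 AP-1 elements and 2 TATA boxes. The ERBB2 window held 1 AP-1 element. These 3 genes stayed within 1.5-fold with both inhibitors in WT. BTC, which rose with niraparib in WT, had no match. Whether the motifs go with the direction of change was not tested.

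Without drug, WT cells expressed the receptors ERBB3 and ERBB2 and the ligand AREG above the other members. Per length, ERBB3 was first at 83.2 ± 3.24 RPKM (SD, n = 3), followed by AREG at 33.9 ± 1.09 and ERBB2 at 21.8 ± 0.743 RPKM. TGFA, EGFR and EGF formed a middle group at 7.09 ± 0.360, 6.42 ± 0.326 and 5.85 ± 0.349 RPKM, and the libraries of EGFR and EGF overlapped. HBEGF was at 0.841 ± 0.108 RPKM, BTC at 0.163 ± 0.0116 and EREG at 0.109 ± 0.00348 RPKM, so EREG was the lowest of the 9 genes. Each other pair of neighbours in this order was separated in all 3 libraries. EREG and BTC rested on few reads here, 18, 33 and 25 counts for EREG and 14, 21 and 17 counts for BTC.

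With niraparib in WT, 4 ligands rose, EREG, AREG, HBEGF and BTC, and the ligand EGF and the receptor ERBB3 fell. These were 6 of the 9 genes, where 13.8% of the 22446 genes tested were called in this comparison. As the list was chosen with earlier results of these data known, this and the later counts of members beside such shares are descriptions and no test of the family. A call required both a P below 0.05 after Benjamini-Hochberg adjustment, in edgeR's quasi-likelihood test, and a shift beyond 1.5-fold in either direction. Where libraries of 2 groups are said to be apart or not to overlap, the share of all genes so separated was not counted. With 3 libraries against 3, an exact permutation test cannot give a 2-sided P below 0.1. TGFA, EGFR and ERBB2 were not called. The median log2 fold change of the 9 genes was 0.064, and that of all genes tested was -0.025.

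EREG encodes epiregulin, a low-affinity but long-acting ligand. It was at 0.600, 0.640 and 0.623 CPM with DMSO and at 4.64, 6.88 and 6.37 CPM with niraparib. Every niraparib library was far above every DMSO library, a log2 fold change of 3.26 ± 0.21 (SE), or 9.55-fold (adjusted P = 3.57e-11). AREG encodes amphiregulin and was at 55.2, 57.7 and 54.3 CPM with DMSO and at 184, 211 and 203 CPM with niraparib. The groups did not overlap, and the log2 fold change was 1.84 ± 0.054, or 3.57-fold (adjusted P = 2.88e-16). HBEGF, the heparin-binding ligand that also serves as the diphtheria toxin receptor, was at 2.23, 2.87 and 2.44 CPM with DMSO and at 8.78, 11.02 and 11.45 CPM with niraparib. Its 2 groups were again apart, with a log2 fold change of 2.04 ± 0.14, or 4.10-fold (adjusted P = 2.14e-10). BTC, betacellulin, was at 0.467, 0.407 and 0.424 CPM with DMSO and at 0.922, 0.919 and 0.962 CPM with niraparib. It stayed below 1 CPM in every library while its groups did not overlap, and its log2 fold change was 1.11 ± 0.30 (adjusted P = 0.00504).

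EGF, the founding member of the family, moved the other way with niraparib. It was at 46.8, 45.2 and 41.7 CPM with DMSO and at 22.3, 20.8 and 21.9 CPM with niraparib. All niraparib libraries lay below all DMSO libraries, and the level with niraparib was 0.485 times that with DMSO (log2 fold change -1.04 ± 0.062, adjusted P = 1.28e-11). TGFA encodes transforming growth factor alpha and was at 36.8, 34.4 and 33.4 CPM with DMSO and at 36.9, 36.6 and 35.8 CPM with niraparib. Its groups overlapped, and its log2 fold change of 0.064 had a 95% interval from -0.054 to 0.18 (adjusted P = 0.419).

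**Figure D1:**
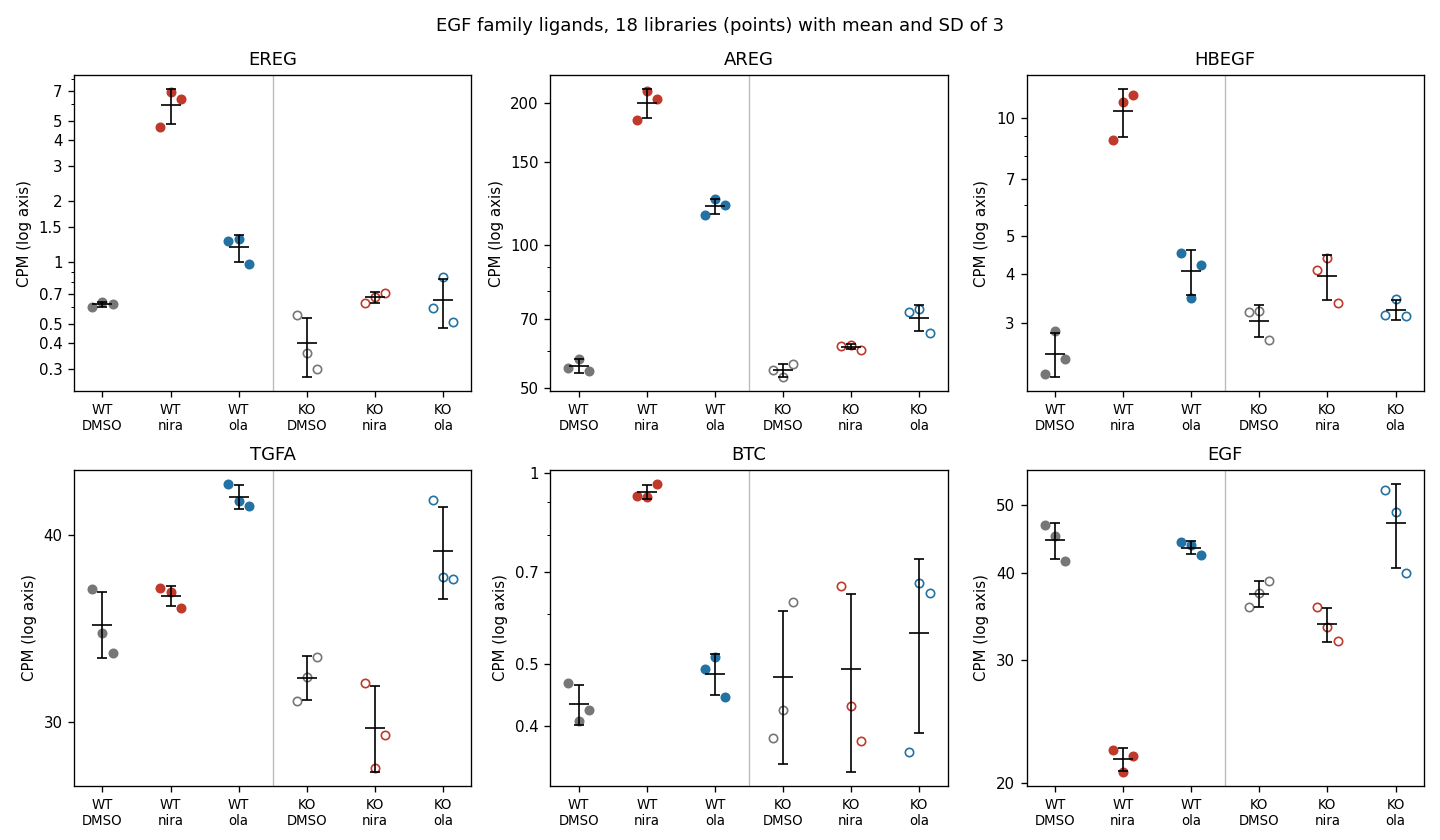
CPM on a log axis of the 6 ligands in the 6 groups, with 1 point for each library, filled for WT and open for PARP1 KO, and the mean and SD of 3. In WT the niraparib points of EREG, AREG, HBEGF and BTC lie above all other points of their panel, and those of EGF lie between 20.8 and 22.3 CPM, below all others.

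With olaparib in WT, EREG, AREG and HBEGF rose, and no member was called lower. These 3 of 9 genes stand beside 4.04% of all genes called in this comparison, which used the same DMSO libraries as that with niraparib. EREG was at 1.27, 1.30 and 0.984 CPM, above each DMSO library, with a log2 fold change of 0.93 ± 0.24 (adjusted P = 0.0067). AREG was at 116, 125 and 122 CPM, between its DMSO and its niraparib levels, with a log2 fold change of 1.12 ± 0.054, or 2.17-fold (adjusted P = 7.77e-12). HBEGF was at 4.54, 3.49 and 4.22 CPM, also above all DMSO libraries, and changed by a log2 fold change of 0.69 ± 0.15, or 1.61-fold (adjusted P = 0.00251). TGFA was at 43.3, 42.1 and 41.8 CPM and lay above every DMSO library, but its log2 fold change of 0.29 ± 0.057 was under 1.5-fold (adjusted P = 0.000923). BTC was at 0.492, 0.515 and 0.444 CPM and EGF at 44.3, 43.8 and 42.4 CPM, and both overlapped their DMSO libraries. Their log2 fold changes were 0.18 (95% interval -0.50 to 0.85) and -0.031 (-0.16 to 0.094), so at the depth of BTC a change of up to 1.81-fold lay within the interval.

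Among the receptors in WT, ERBB3 fell with niraparib, and the other values stayed within 1.5-fold with both drugs. ERBB3 was at 786, 739 and 731 CPM with DMSO and at 450, 389 and 407 CPM with niraparib. The niraparib libraries were well below the others, and the level was 0.552 times that with DMSO (log2 fold change -0.86 ± 0.055, adjusted P = 5.56e-11). With olaparib ERBB3 was at 736, 694 and 718 CPM, which overlapped the DMSO libraries (log2 fold change -0.068, 95% interval -0.18 to 0.047). ERBB2 was at 217, 230 and 230 CPM with DMSO, 222, 207 and 223 CPM with niraparib and 209, 212 and 216 CPM with olaparib. Its intervals ran from -0.15 to 0.042 for niraparib and from -0.18 to 0.015 for olaparib on the log2 scale, although each olaparib library was below each DMSO library. EGFR was at 84.1, 81.2 and 76.0 CPM with DMSO, 81.3, 72.4 and 67.9 CPM with niraparib and 87.5, 79.9 and 87.0 CPM with olaparib. Both drug groups overlapped DMSO, with log2 fold changes of -0.12 (95% interval -0.26 to 0.011) for niraparib and 0.080 (-0.055 to 0.21) for olaparib. Without niraparib replicate 1 the first of these had an adjusted P below 0.05, at -0.20 (adjusted P = 0.0155), still under 1.5-fold.

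**Figure D2:**
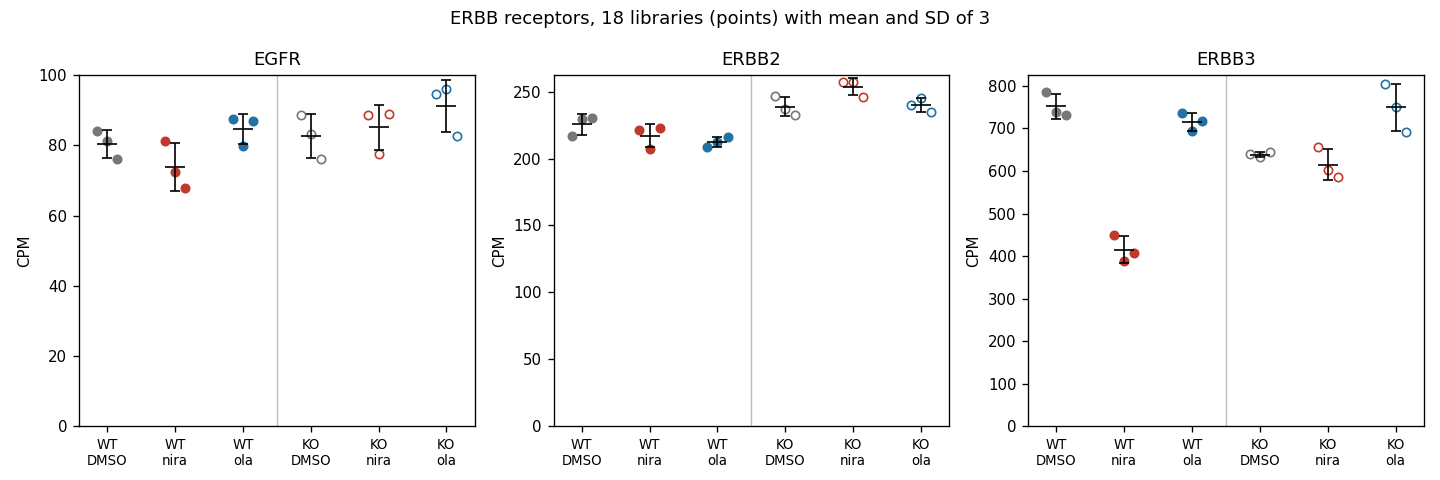
CPM, on axes from 0, of the 3 receptors in the 6 groups, with 1 point for each library, filled for WT and open for PARP1 KO, and the mean and SD of 3. The WT niraparib points of ERBB3, 389 to 450 CPM, lie below all other ERBB3 points, while the groups of EGFR and ERBB2 lie close together.

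Niraparib and olaparib were given at the same dose for the same time, and in WT they differed in 6 of the 9 genes by more than 1.5-fold, beside 8.95% of all genes tested. The members called here were EREG, AREG, HBEGF, BTC, EGF and ERBB3. The EREG level was 5.00-fold higher with niraparib than with olaparib (log2 difference 2.32 ± 0.19, adjusted P = 4.77e-09). HBEGF was 2.55-fold higher (1.35 ± 0.14, adjusted P = 1.08e-07) and AREG 1.64-fold higher (0.72 ± 0.052, adjusted P = 8.71e-10). For BTC the log2 difference was 0.94 ± 0.30 (adjusted P = 0.0193), which was no longer below 0.05 without olaparib replicate 3 (0.88, adjusted P = 0.0596). EGF and ERBB3 were lower with niraparib, at 0.496 and 0.579 times the olaparib level (log2 differences -1.01 ± 0.062 and -0.79 ± 0.055, adjusted P = 5.28e-11 and 5.08e-10). TGFA and EGFR were also lower with niraparib by less than 1.5-fold, with log2 differences of -0.22 (adjusted P = 0.00369) and -0.20 (adjusted P = 0.0194). The adjusted P of EGFR rose above 0.05, to at most 0.122, without niraparib replicate 2, niraparib replicate 3, olaparib replicate 1 or olaparib replicate 3. The ERBB2 difference of 0.027 had an interval from -0.071 to 0.12. All 9 genes were compared between the drugs, and P values were adjusted over all 22446 genes.

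Summed per length, the 6 ligands were at 48.0 ± 1.49 RPKM (SD, n = 3) in WT with DMSO, 136.6 ± 9.10 RPKM with niraparib and 89.7 ± 2.51 RPKM with olaparib. AREG made up 70.7 ± 0.936% of this sum with DMSO, 88.9 ± 0.393% with niraparib and 82.1 ± 0.902% with olaparib. EGF went from 12.2 ± 0.488% of the sum with DMSO to 2.09 ± 0.215% with niraparib, and EREG, with the highest fold change, still made up 0.760 ± 0.103% of the sum there. With niraparib AREG, at 121 ± 8.60 RPKM, stood above ERBB3, at 46.0 ± 3.47 RPKM, which headed the order with DMSO. HBEGF, at 3.48 ± 0.480 RPKM, stood above EGF, at 2.84 ± 0.106 RPKM, and EREG, at 1.04 ± 0.205 RPKM, above BTC, at 0.352 ± 0.00914 RPKM. With DMSO each of these 3 pairs was in the opposite order. The 3 receptors summed to 111 ± 2.79 RPKM with DMSO, 72.9 ± 4.50 RPKM with niraparib and 107 ± 2.53 RPKM with olaparib. Of the receptor sum, ERBB3 made up 74.6 ± 1.05%, 63.0 ± 0.889% and 74.3 ± 0.554%. These sums describe mRNA and give no measure of protein or of released ligand.

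**Figure D3:**
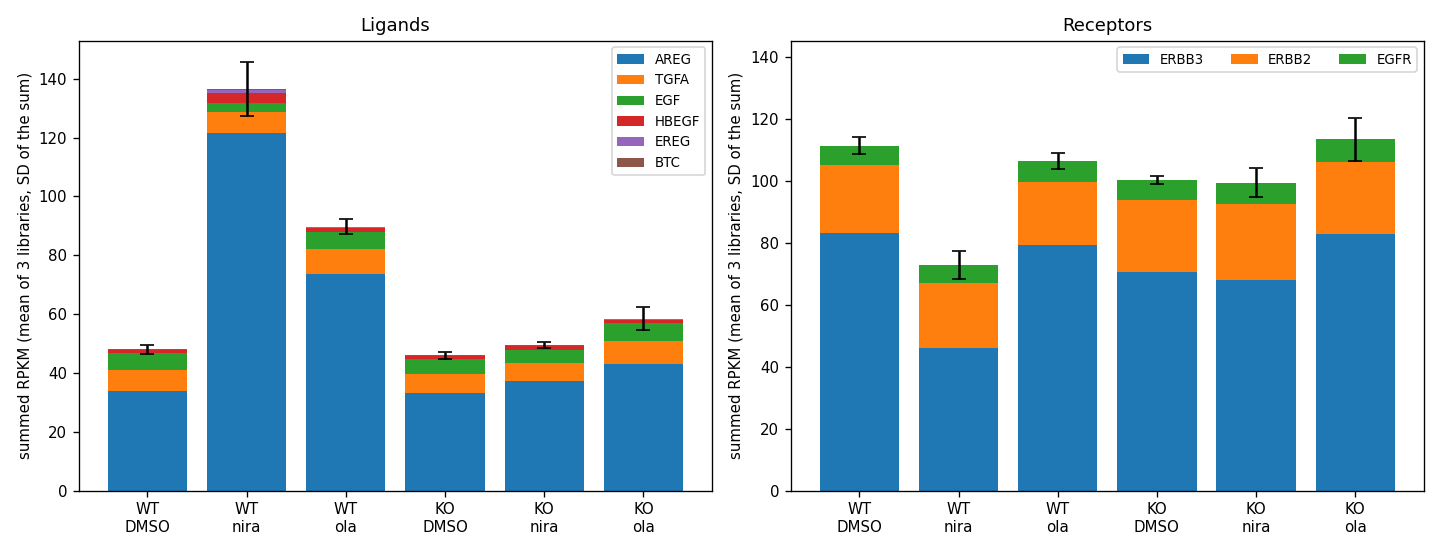
Stacked mean RPKM of the 6 ligands (left) and the 3 receptors (right) in the 6 groups, with bars from 0 and the SD of the sum over 3 libraries. The ligand bar is highest in WT with niraparib, where AREG makes up 88.9% of it, and the receptor bar is lowest there.

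In PARP1 KO, none of the 9 genes was called with niraparib by edgeR or DESeq2, and 2 had an unadjusted P below 0.05. In this comparison 0.0136% of the 22037 genes tested were called, and 9.14% had an unadjusted P below 0.05. EREG was at 0.548, 0.359 and 0.299 CPM with DMSO and at 0.631, 0.677 and 0.710 CPM with niraparib. The groups did not overlap, but the counts ran from 11 to 30, and the log2 fold change of 0.74 had an interval from -0.0066 to 1.49 (adjusted P = 0.551). AREG was at 54.6, 52.8 and 56.2 CPM with DMSO and at 61.5, 61.8 and 60.3 CPM with niraparib, all above the DMSO libraries. Its log2 fold change was 0.17, with an interval from 0.051 to 0.29 (adjusted P = 0.321). HBEGF was at 3.20, 3.23 and 2.72 CPM with DMSO and at 4.10, 4.398 and 3.38 CPM with niraparib, also apart, and its log2 fold change of 0.38 had an interval from 0.046 to 0.71 (adjusted P = 0.476). BTC, at 0.383 to 0.626 CPM with DMSO, and EGF, at 35.7, 37.5 and 39.0 CPM, overlapped their niraparib libraries, at 0.379 to 0.666 CPM and at 35.8, 33.5 and 32.0 CPM. The intervals were -0.81 to 0.84 for BTC and -0.31 to 0.028 for EGF. ERBB3 was at 640, 632 and 644 CPM with DMSO and at 657, 603 and 585 CPM with niraparib, and its interval ran from -0.16 to 0.064.

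With olaparib in PARP1 KO, again no member was called by edgeR or DESeq2, beside 0.803% of all genes. Before adjustment 5 members had a P below 0.05, as did 21.1% of all genes. AREG, TGFA, EGF and ERBB3 were higher at an adjusted P below 0.05 but by less than 1.5-fold. AREG was at 72.3, 73.6 and 65.4 CPM, above all its DMSO libraries, with a log2 fold change of 0.37 ± 0.057 (adjusted P = 0.000442). TGFA was at 31.0, 32.2 and 33.2 CPM with DMSO and at 42.2, 37.5 and 37.4 CPM with olaparib (0.28 ± 0.069, adjusted P = 0.0135). EGF was at 52.6, 48.98 and 39.95 CPM (0.34 ± 0.081, adjusted P = 0.0133) and ERBB3 at 804, 751 and 693 CPM (0.23 ± 0.054, adjusted P = 0.0105), and no library of either overlapped DMSO. With 1 library left out the log2 fold changes of TGFA, EGF and ERBB3 stayed above 0, and several such fits missed the threshold. The adjusted P rose above 0.05 without DMSO replicate 1 for TGFA and EGF, without DMSO replicate 2 or olaparib replicate 1 for all 3 genes, and without olaparib replicate 2 for EGF and ERBB3, and reached at most 0.0824, with log2 fold changes of 0.22 to 0.28 for TGFA, 0.25 to 0.34 for EGF and 0.18 to 0.23 for ERBB3 in these fits. EREG was at 0.598, 0.847 and 0.511 CPM and HBEGF at 3.14, 3.46 and 3.13 CPM with olaparib. Both overlapped DMSO, with intervals of -0.046 to 1.45 and -0.24 to 0.43.

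The 2 drugs did not differ by more than 1.5-fold in any member in PARP1 KO, by edgeR or DESeq2, beside 1.07% of all genes. AREG, TGFA, EGF and ERBB3 were lower with niraparib than with olaparib, with log2 differences of -0.20 ± 0.057, -0.39 ± 0.069, -0.48 ± 0.081 and -0.28 ± 0.054 (adjusted P = 0.0289, 0.00101, 0.00082 and 0.00199), and these were the 4 with an unadjusted P below 0.05, beside 22.1% of all genes. In none of the 4 did the niraparib and olaparib libraries overlap. Those of ERBB2 were apart as well, higher with niraparib. The adjusted P of AREG rose above 0.05 without each of niraparib replicates 1, 2 and 3 and olaparib replicates 1 and 2, and reached at most 0.163. EGFR was at 88.8, 77.7 and 89.1 CPM with niraparib and at 94.7, 96.2 and 82.7 CPM with olaparib, against 88.6, 83.1 and 76.2 CPM with DMSO. ERBB2 was at 257, 257 and 246 CPM, at 240, 245 and 235 CPM and at 247, 237 and 232 CPM in the same order. Neither receptor had an adjusted P below 0.05 in any of the 3 comparisons within PARP1 KO.

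The ligand sum in PARP1 KO was 45.9 ± 1.23 RPKM with DMSO, 49.4 ± 1.02 RPKM with niraparib and 58.4 ± 3.81 RPKM with olaparib, and AREG made up 72.3 ± 0.705%, 75.5 ± 0.970% and 73.4 ± 0.894% of it. The receptor sum was 100.4 ± 1.23, 99.4 ± 4.68 and 113 ± 6.96 RPKM. ERBB3 was highest, followed by AREG and ERBB2, in each of the 3 groups, with all libraries of neighbours apart.

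Without drug, no member was called between the genotypes by edgeR or DESeq2, beside 0.146% of the 24675 genes tested. Before adjustment 3 members had a P below 0.05, as did 13.6% of all genes. ERBB3 was lower in PARP1 KO, with a log2 difference of -0.24 ± 0.055 (adjusted P = 0.0203), and its libraries did not overlap those of WT. This adjusted P rose above 0.05 when WT DMSO replicate 1 was left out (0.161) or any of the PARP1 KO DMSO libraries was (0.0679 to 0.106). EGF was at a log2 difference of -0.25 ± 0.072 (adjusted P = 0.0703) and EREG at -0.62 ± 0.30 (adjusted P = 0.351), with all PARP1 KO libraries below all WT libraries in both. The libraries were also apart for TGFA, lower in PARP1 KO (-0.12, adjusted P = 0.418), and for ERBB2, higher in PARP1 KO (0.082, adjusted P = 0.439). The adjusted P of EGF was 0.0383 with DESeq2 and 0.0112 with no filter on low counts. AREG had a log2 difference of -0.031, with an interval from -0.15 to 0.083.

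The change with niraparib differed between the genotypes for EREG, AREG, HBEGF, EGF and ERBB3, 5 of the 9 genes beside 8.88% of all genes tested. The difference was tested directly in a fit of all 18 libraries, as the PARP1 KO change minus the WT change, and it is negative where a gene rose less in PARP1 KO. It was -2.52 ± 0.39 for EREG (adjusted P = 4.41e-06), -1.67 ± 0.079 for AREG (adjusted P = 4.95e-18) and -1.67 ± 0.21 for HBEGF (adjusted P = 1.13e-07). For the genes that fell in WT it was 0.89 ± 0.10 for EGF (adjusted P = 2.08e-08) and 0.80 ± 0.078 for ERBB3 (adjusted P = 4.86e-10). BTC had a difference of -1.10 with an interval from -2.10 to -0.11 (adjusted P = 0.106), so at its depth a difference between the genotypes was not called. TGFA, EGFR and ERBB2 were at -0.18, 0.17 and 0.14 (adjusted P = 0.166, 0.275 and 0.119). The adjusted P of ERBB2 was 0.0419 with filterByExpr and 0.0285 with DESeq2, at a log2 value of 0.15 in both.

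For the difference between the genotypes in the change with olaparib, AREG alone of the 9 genes was called, at -0.75 ± 0.078 (adjusted P = 1.67e-07), beside 0.657% of all genes. EGF, at 0.37 ± 0.10 (adjusted P = 0.0407), and ERBB3, at 0.30 ± 0.078 (adjusted P = 0.0283), passed the adjusted P but not the fold. The adjusted P of EGF rose above 0.05, to at most 0.125, without WT DMSO replicate 1 or 2, any WT olaparib library, PARP1 KO DMSO replicate 1 or 2, or PARP1 KO olaparib replicate 1 or 2. That of ERBB3 did so, to at most 0.0975, when WT DMSO replicate 1, WT olaparib replicate 2 or replicate 1 or 2 of PARP1 KO with DMSO or olaparib was left out. For EREG, which was called with olaparib in WT and not in PARP1 KO, the difference itself was -0.22 with an interval from -1.03 to 0.58 (adjusted P = 0.84), so the genotypes were not shown to differ. HBEGF was at -0.59, just beyond 1.5-fold, with an interval from -1.03 to -0.15, and was not called (adjusted P = 0.148). TGFA was at -0.0030 with an interval from -0.18 to 0.18, and its change with olaparib was 0.29 in WT and 0.28 in PARP1 KO.

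**Figure D4:**
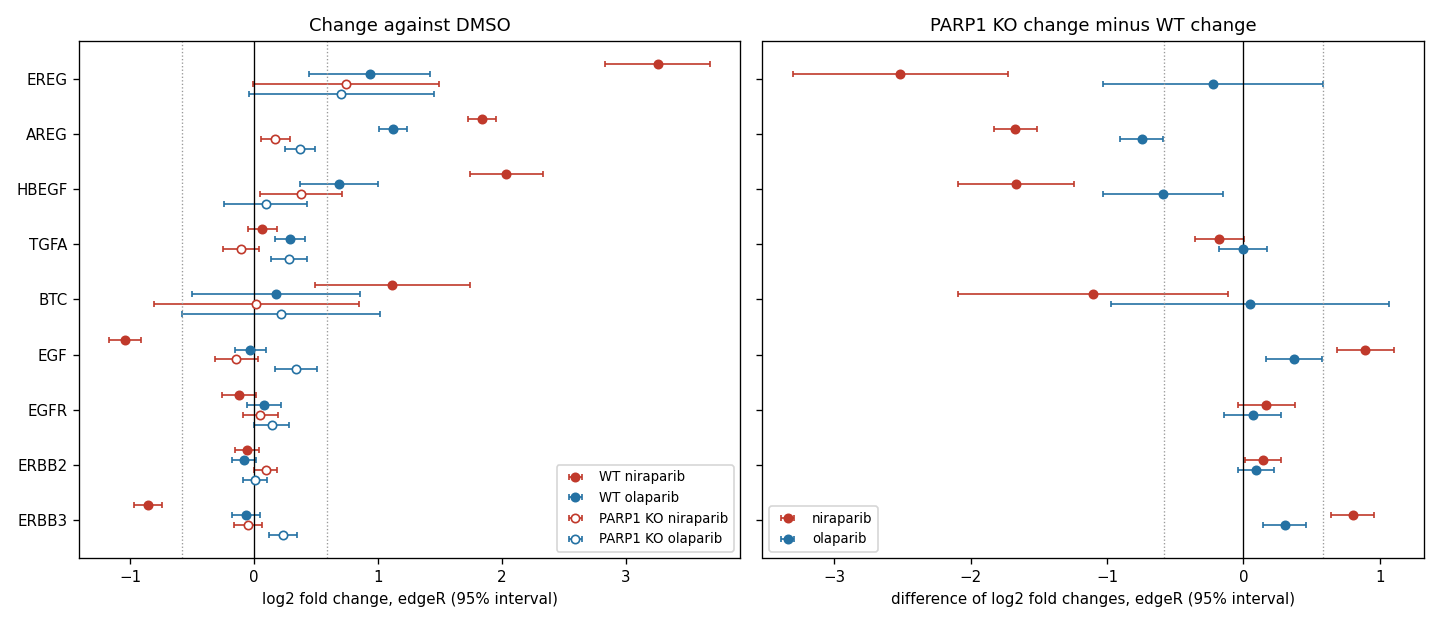
Log2 fold changes against DMSO of the 9 genes (left; WT filled, PARP1 KO open) and the PARP1 KO change minus the WT change (right), with 95% intervals from edgeR. Dotted lines mark a change of 1.5-fold. For EREG, AREG and HBEGF the WT niraparib change lies furthest right, and the right panel places their niraparib differences between -2.52 and -1.67.

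Other genes of the pathway were counted in 4 lists with 53 genes, of which 50 passed the count filter in WT. With niraparib in WT 8 of the 50 were called and their median log2 fold change was 0.10, beside 13.8% of all genes called and a median of -0.025. In the list of the other EGF family ligands and the fourth receptor, EPGN, NRG2, NRG4 and ERBB4 were tested and NRG1 and NRG3 were not. EPGN, epigen, rose from 0.492 ± 0.203 to 2.43 ± 0.532 CPM (log2 fold change 2.26 ± 0.30, adjusted P = 1.89e-06), and ERBB4 fell from 35.3 ± 0.685 to 20.5 ± 1.33 CPM (-0.79 ± 0.066, adjusted P = 2.87e-09). Of the 9 genes of ligand release, TIMP3, a metalloprotease inhibitor, rose from 1.22 ± 0.131 to 2.75 ± 0.516 CPM (1.18 ± 0.21, adjusted P = 8.69e-05). The sheddases ADAM10 and ADAM17 were among the 8 that were not called.

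Of the 18 tested genes of receptor inhibition and down-regulation, LRIG1 fell and LRIG3 rose with niraparib in WT. LRIG1, a transmembrane protein that promotes the degradation of ERBB receptors, went from 298.5 ± 3.28 to 175 ± 11.1 CPM (-0.77 ± 0.049, adjusted P = 4.29e-11). LRIG3, a related protein, went from 39.2 ± 2.23 to 63.5 ± 3.90 CPM (0.69 ± 0.057, adjusted P = 2.62e-09). Of the 19 adaptors and members of the RAS-RAF-ERK cascade, the docking proteins GAB1 (0.60 ± 0.057) and GAB2 (0.70 ± 0.046) and the kinase BRAF (0.64 ± 0.058) rose (adjusted P = 2.22e-08, 6.12e-11 and 9.38e-09). GAB1 fell below 1.5-fold without DMSO replicate 3 (0.54) and without niraparib replicate 2 (0.57). Beside ERBB2 on chromosome 17, PGAP3 alone of 8 tested neighbours was called, and it fell (-0.78 ± 0.062, adjusted P = 1.37e-09), a count near the 13.8% of all genes called.

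With olaparib in WT, GAB2 was the 1 gene of the 50 called (0.84 ± 0.046, adjusted P = 6.11e-11), beside 4.04% of all genes. Between the drugs in WT 4 of the 50 were called, beside 8.95% of all genes. Of these, EPGN (2.27 ± 0.30) and TIMP3 (1.05 ± 0.21) were higher and ERBB4 (-0.59 ± 0.066) and LRIG1 (-0.60 ± 0.049) lower with niraparib (adjusted P = 3.61e-06, 0.000402, 4.2e-07 and 5.04e-09). ERBB4 lay so close to 1.5-fold that DESeq2 and other scalings or filters put it at -0.58 and below the fold threshold, as did leaving out niraparib replicate 2 or olaparib replicate 1 or 3. LRIG1 was at -0.55 without niraparib replicate 2. In PARP1 KO, GAB2 alone of 48 was called with olaparib, beside 0.803% of all genes (0.62 ± 0.055, adjusted P = 1.51e-06), and at 0.57 without olaparib replicate 1 it was under the fold threshold. None of the 48 genes tested in PARP1 KO was called with niraparib by edgeR or DESeq2, beside 0.0136% of all genes, and 4 had an unadjusted P below 0.05, beside 9.14% of all genes.

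EREG, AREG, BTC and EPGN lie in 1 stretch of chromosome 4, which was examined after their values were seen. On GRCh38 as in the deposited annotation, EREG spans chr4:74365145-74388749 and AREG chr4:74445136-74455005 on the plus strand, and BTC spans chr4:74744759-74794523 on the minus strand. EPGN starts 136.7 kb and EREG 79.99 kb before the AREG start, and BTC starts 349 kb after it. Within 500 kb of the AREG start were 18 genes, of which 10 were tested and 6 were called with niraparib in WT, where 13.8% of all genes were called. EPGN, EREG, AREG, BTC and PARM1 rose, and MTHFD2L fell. PARM1 went from 0.0674 to 0.519 CPM (log2 fold change 2.78, adjusted P = 0.000588) and MTHFD2L from 5.04 to 3.07 CPM (-0.71, adjusted P = 0.000837), and without DMSO replicate 1 MTHFD2L was at -0.58, just under 1.5-fold. The PARM1 value rests on few reads, and it ran from 2.35 to 3.37 over the alternative fits. The chemokine genes CXCL2 and CXCL3 were below 0.3 CPM and not called, with log2 fold changes of 1.33 and -0.86. As the stretch was chosen for its members, it was given no test.

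**Figure D5:**
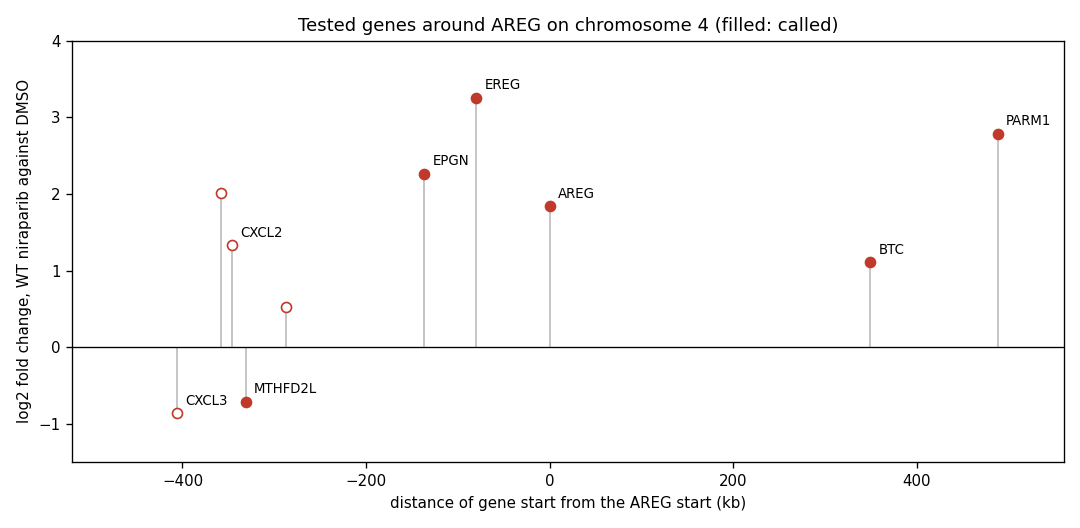
Log2 fold change with niraparib in WT of the 10 tested genes within 500 kb of the AREG start, by the distance of their starts from it in kb. Filled points were called, open points were not, and the 2 unlabelled open points are genes without a symbol. The filled points of EPGN, EREG, AREG, BTC and PARM1 lie above 0 and that of MTHFD2L below.

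The other members lie apart. EGF spans chr4:109912884-110013755 on the plus strand, in another region of chromosome 4. HBEGF spans chr5:140332843-140346603 and TGFA chr2:70447284-70554193, both on the minus strand, and EGFR chr7:55019017-55211628, ERBB2 chr17:39687914-39730426 and ERBB3 chr12:56076799-56103505 on the plus strand. In 8 members no exon base overlapped a further gene on the coding strand, and in ERBB3 0.343% of the exon bases did.

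For each member of at least 1 CPM on average, the genes with the most similar profile were found among 13488 genes by Pearson's r of log2 CPM over the 18 libraries. This is a description, because the libraries share groups. AREG was most like NFIL3 (r = 0.99) and TP53I11 (0.99), and over the 15 libraries without the WT niraparib group these were at 0.97 and 0.98. EREG was most like TRIP6 (0.98) and MARS1 (0.98), which dropped to 0.84 and 0.85 over the 15 libraries. EREG reached 1 CPM on average only through the WT niraparib group, at 5.96 CPM, as the other group means were 0.402 to 1.18 CPM. HBEGF was most like VDR (0.98) and MOCS1 (0.98), at 0.89 and 0.90 over the 15. EGF followed KIF5B (0.99) and TOB1 (0.99), and ERBB3 followed SERTAD4 (0.99) and ZNF318 (0.99). Without the WT niraparib group these were at 0.97 and 0.95 for EGF and at 0.92 for both genes beside ERBB3. TGFA was nearest to RIT1 (0.97) and KDM3A (0.97), ERBB2 to PRLR (0.93) and CRIM1 (0.92), and EGFR to NBPF10 (0.87) and DIP2C (0.86). BTC was below 1 CPM and was left out.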

How the data were processed

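Values start from the raw counts that the authors deposited, 1 table of genes for each library. Per the labels and the study's methods, reads were trimmed (Trimmomatic), aligned to GRCh38 (STAR) and passed through Picard MarkDuplicates, with no statement on whether duplicates were removed. Primary alignments in exons of Ensembl release 96 were then counted on the reverse strand by featureCounts 2.0.0. Symbols were matched for 58472 of 58884 identifiers.

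Testing used edgeR 4.0.16 under R 4.3.3, with TMM factors, a robust quasi-likelihood F test and Benjamini-Hochberg adjustment over all genes with more than 10 counts in the libraries fitted. Each genotype was fitted alone (9 libraries), and genotype differences and interactions came from all 18. Biological coefficients of variation were 7.05% (WT), 7.42% (PARP1 KO) and 7.24% (all). Each SE was obtained from the log2 fold change and its F statistic. The code was tested on simulated data.

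CPM and RPKM were computed from the counts with TMM factors, and RPKM used merged exon lengths. Replicates were compared first by a chi-square of their counts, and no pair of libraries was identical.

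The members and lists were chosen with earlier results of these data known. All members are named, and of the lists every called gene, as no list had more than 3 in a comparison. The chromosome 4 genes were chosen after their values were seen. Alternatives were RLE size factors, filterByExpr, no filter, DESeq2 1.42.0, 1 fit of 18 libraries, other thresholds, a replicate term and leaving out each library.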

Additional observations from a re-analysis of the deposited data

Results flagged for a closer look

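The change with niraparib differed between WT and PARP1 KO, by a test of the difference itself, for 5 of the 9 members and 7 of 51 tested genes of the pathway lists, beside 8.88% of the 24675 genes tested. Given as the PARP1 KO log2 fold change minus that of WT, the difference was -2.52 for EREG, -1.67 for AREG, -1.67 for HBEGF and -2.86 for the ligand EPGN (edgeR, adjusted P = 4.41e-06, 4.95e-18, 1.13e-07 and 4.32e-05). EPGN was at 0.720 ± 0.276 CPM (SD, n = 3) in PARP1 KO with DMSO and at 0.475 ± 0.203 CPM with niraparib, while all 4 ligands rose in WT. It was also negative for TIMP3 (-1.49), LRIG3 (-0.79), BRAF (-0.68) and GAB2 (-0.59). The difference was 0.89 for EGF, 0.80 for ERBB3, 0.80 for ERBB4 and 0.64 for LRIG1, all of which fell in WT. ERBB4 was at 33.1 ± 1.79 CPM in PARP1 KO with DMSO and 33.3 ± 1.65 CPM with niraparib.

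With olaparib, where 0.657% of all genes were called, the difference was -0.75 for AREG (adjusted P = 1.67e-07), 1 of 9 members, and -0.76 for LRIG3 (adjusted P = 3.08e-05), 1 of 51 list genes. LRIG3 was at 51.7 ± 6.86 CPM in PARP1 KO with DMSO and 36.6 ± 2.79 CPM with olaparib, against 39.2 ± 2.23 and 47.3 ± 0.487 CPM in WT. The GAB2 difference with niraparib was just within 1.5-fold, at -0.57 to -0.58, with RLE size factors, filterByExpr, DESeq2 and the replicate block. It was so as well without WT DMSO replicate 1 or 2, PARP1 KO DMSO replicate 1 or PARP1 KO niraparib replicate 2 or 3.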

How the results depend on the processing

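Of 1053 values of the 9 genes under the alternatives, 1052 kept their side of the call, and 1 lost the call (BTC between the drugs in WT without olaparib replicate 3). The sign changed in 28 values, all of them for changes that were not called. Of 1284 values of 11 other genes named, 27 lost a call and 8 gained 1, mostly for ERBB4, GAB1, GAB2 and MTHFD2L. For the interactions of MTHFD2L the adjusted P was 0.108 to 0.134 where the call for niraparib was lost and 0.0425 to 0.0471 where that for olaparib was gained. Leaving out 1 library each gave 6 genes of the family for niraparib in WT, 3 for olaparib, 5 to 6 between the drugs, 0 in each PARP1 KO comparison and between genotypes, 5 for the interaction with niraparib and 1 for that with olaparib. With a log2 fold change above 1.5 in place of 1.5-fold, the members called were 3 for niraparib in WT (EREG, AREG and HBEGF), 0 for olaparib, 1 between the drugs (EREG), 3 for the interaction with niraparib and 0 for that with olaparib. All genes called were then 709, 153 and 367 in WT, 0, 21 and 24 in PARP1 KO (niraparib, olaparib, between the drugs), 3 between the genotypes and 457 and 30 for the interactions. With the adjusted P below 0.05 alone, 6 members passed for niraparib in WT, 4 for olaparib and 8 between the drugs. In PARP1 KO 0 members passed for niraparib, 4 for olaparib and 4 between the drugs. Between genotypes 1 member passed, and 5 and 3 did for the interactions with niraparib and olaparib. All genes passing were 8530, 4270 and 7232 in WT, 24, 1827 and 2203 in PARP1 KO, 344 between the genotypes and 5661 and 559 for the interactions. For niraparib in PARP1 KO, all genes called were 24 with no filter on low counts, 8 with DESeq2 and 6 in 1 fit of 18 libraries. With no filter they were 102 between the genotypes and 346 for the interaction with olaparib. Leaving out 1 library each gave 100 to 195 genes for olaparib in PARP1 KO, 144 to 281 between the drugs there, 5 to 46 between the genotypes and 86 to 273 for the interaction with olaparib. The causes of these shifts were not tested. Groups share replicate numbers, but the numbers did not pair the libraries: 9 of 27 pairs with the same number had correlated deviations above 0.1 (range -0.54 to 0.55), and a library correlated best with its own number in 25 of 90 cases. With the replicate block the members called were 6 for niraparib in WT, 3 for olaparib and 5 and 1 for the interactions, and all genes called were 2920 for niraparib in WT and 812 for olaparib. The difference of AREG between the drugs in PARP1 KO had an adjusted P of 0.052 with the replicate block. Depth limits BTC and EREG most: BTC had 13 to 27 counts a library in PARP1 KO.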
